A study of Mus musculus with 2 samples.

Results

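The smooth-muscle contractile genes of myofibroblasts were examined as 10 genes, *Acta2*, *Actg2*, *Tagln*, *Cnn1*, *Cnn2*, *Tpm1*, *Tpm2*, *Cald1*, *Myl9* and *Mylk*, taken by symbol from a table of 24532 mouse genes. All 10 were found once, and all 10 passed the filter on low values described below. The cells were cardiac myofibroblasts from mice whose strain the labels give as C57BL/6, isolated 3 days after myocardial infarction (MI) as the CD45-negative fraction of the heart cells that attached to plastic overnight, and grown in DMEM with 10% FBS. They were transfected with control siRNA, here siCtrl, or with si*Vgll3*, which targets the message of *Vgll3*, a cofactor of the TEAD transcription factors, each at 12.5 nM in Lipofectamine RNAiMAX, and RNA was taken after 72 h. The labels do not say how many animals the cells came from. There was 1 library per condition, so no difference has a replicate check, no test of the conditions was possible and no p-value is given.

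Myofibroblasts arise from fibroblasts in a wound and take on a contractile apparatus otherwise typical of smooth muscle. In such cells, thin filaments of actin are coated with tropomyosin, caldesmon and calponin, and they slide along myosin when calmodulin-activated myosin light chain kinase phosphorylates the regulatory light chain. Many of these genes are known targets of serum response factor (SRF), which acts at CArG boxes with the cofactors myocardin and MRTF, and α-smooth muscle actin is the customary marker of the myofibroblast state.

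Levels are given as TPM, a value per gene length and library size that allows levels to be compared between genes, beside the number of reads. M is the log2 ratio of TPM in si*Vgll3* over siCtrl, and A is the log2 of the mean TPM of both libraries. A gene was called higher at M above 0.5 and lower at M below −0.5, each with A above 0. The interval in square brackets after M is a 95% Clopper-Pearson interval, which covers counting error only and leaves out the variation between cultures. In a bulk library, fewer cells of a type and less RNA per cell cannot be told apart.

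The siRNA target was lower in the library labelled si*Vgll3*. *Vgll3* (chromosome 16, 65815189 to 65866368) had 202 TPM with the control siRNA against 84.0 with si*Vgll3* (M of −1.27 [−1.29, −1.24]), so that 41.6% of the siCtrl level was left. The libraries held 140815237 (siCtrl) and 125789276 (si*Vgll3*) reads assigned to genes. Of the 11754 genes with A above 0, 11.4% were lower and 5.73% higher, 43.0% had an M above 0, and the median M was −0.05. The fibroblast marker *Pdgfra* had 184 and 190 TPM in siCtrl and si*Vgll3*. All 9 fibroblast markers had A above 0, of which 4 were lower (*Col1a1*, *Col1a2*, *Lum* and *Tcf21*) and 1 higher (*Thy1*). Of the defining markers of other cell types, *Ptprc* (leukocytes) and *Myh6* (cardiomyocytes) had 0 reads in both libraries, which allows up to 3 reads in each. *Myh11* (smooth muscle) had 0.48 and 0.18 TPM, *Rgs5* (pericytes) 0.51 and 0.44, *Pecam1* (endothelium) 1.89 and 2.61, and *Wt1* (mesothelium) 7.61 and 4.78.

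Of the 10 contractile genes, 2 were higher in si*Vgll3*, *Cnn1* and *Tagln*, and 1 was lower, *Mylk*, while the M of the other 7 lay between 0.03 and 0.33. For comparison, 5.73% of all genes with A above 0 were higher and 11.4% lower, so 1 lower gene of 10 is near the share of all genes. The M of 9 of the 10 was above 0, beside 43.0% of all genes, although the M of *Tpm1* and *Myl9* falls below 0 when the values are set relative to *Gapdh*. The median M of the 10 was 0.22. The summed level of the 10 genes was 9154 TPM in the siCtrl library and 10972 in the si*Vgll3* library, which made up 0.917% and 1.10% of the TPM total, and without *Acta2* it was 5858 and 7106. The 4 most abundant, *Acta2*, *Tagln*, *Tpm1* and *Cnn2*, held 81.1% and 82.0% of that sum. On the TPM scale the knockdown library thus held the abundant members at or somewhat above the control level, and the lower member was the scarcest of the 10.

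**Figure D1:**
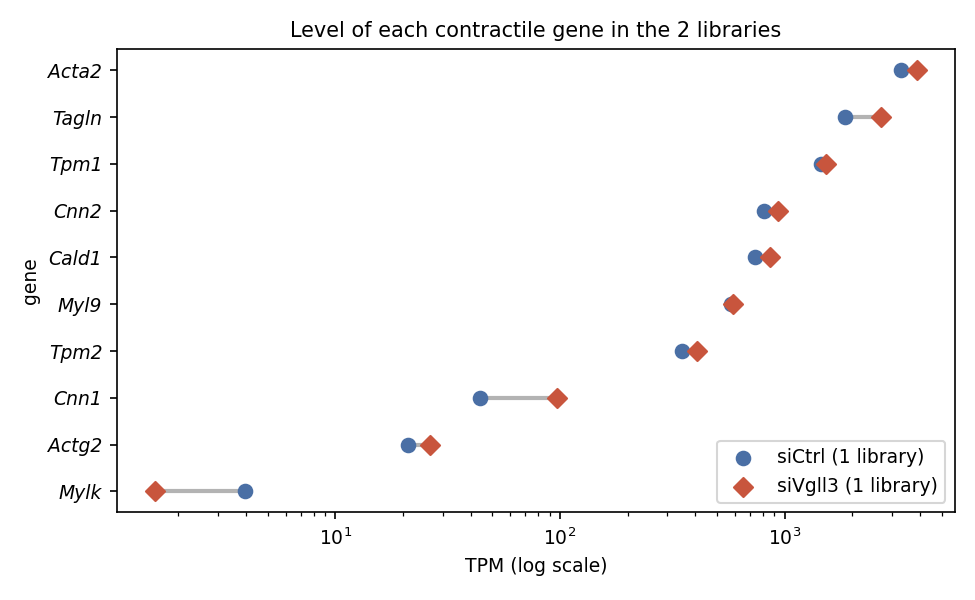
Level of each contractile gene in siCtrl (circles) and si*Vgll3* (diamonds), with TPM on a log axis and 1 library per condition. *Acta2* was the most abundant at 3296 and 3866 TPM, *Mylk* the scarcest at 3.95 and 1.57, and *Cnn1* and *Mylk* show the widest gaps.

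The actins form the thin filament itself. *Acta2* (gene ID 11475, chromosome 19, 34240336 to 34255585) encodes α-smooth muscle actin. It had 541201 reads and 3296 TPM in siCtrl, and 587542 reads and 3866 TPM in si*Vgll3*, so that M was 0.23 [0.22, 0.24]. It was among the most abundant messages of either library, at rank 25 in siCtrl and rank 20 in si*Vgll3*, and its difference stayed within the threshold. *Actg2* (11468, chromosome 6, 83512909 to 83536251), the enteric smooth muscle actin, had 1760 reads and 21.0 TPM in siCtrl against 2042 reads and 26.3 TPM, with an M of 0.33 [0.23, 0.42]. Its level was far below that of *Acta2*, which had 157 times the TPM of *Actg2* in siCtrl and 147 times in si*Vgll3*. Within the actin family, *Acta2* held 23.7% of the summed TPM in siCtrl and 24.8% in si*Vgll3*, beside 43.9% and 44.8% for *Actb* and 32.2% and 30.2% for *Actg1*, the cytoplasmic actins. *Acta1*, skeletal muscle actin, held 0.0106% and 0.0105%, and *Actc1*, cardiac actin, had 0 reads. The ratio of *Acta2* to *Actb* was 0.540 and 0.555, so the mix of actin messages was nearly the same in the pair of libraries.

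The tropomyosins lie along the actin filament and control access of myosin to it. *Tpm1* (22003, chromosome 9, 67022590 to 67049672) had 156852 reads and 1450 TPM in siCtrl, and 152150 reads and 1520 TPM in si*Vgll3*, for an M of 0.07 [0.06, 0.08]. *Tpm2* (22004, chromosome 4, 43513726 to 43523583) had 48511 reads and 350 TPM in siCtrl, and 51916 reads and 406 TPM in si*Vgll3*, for an M of 0.22 [0.20, 0.23]. Both lay within the threshold. *Tpm1* produces muscle and non-muscle tropomyosins by alternative splicing, and RefSeq lists 10 transcripts of it, which gene-level values do not separate. *Tpm1* held 32.0% and 30.8% of the tropomyosin TPM and *Tpm2* 7.71% and 8.24%, while the non-muscle *Tpm4* held most at 46.2% and 47.7% and *Tpm3* 14.1% and 13.3%. *Cald1* (109624, chromosome 6, 34598495 to 34775469) encodes caldesmon, which holds back the actomyosin ATPase. It had 193734 reads and 736 TPM in siCtrl, and 208825 reads and 858 TPM in si*Vgll3*, for an M of 0.22 [0.21, 0.23], again within the threshold.

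Calponins and transgelins are related proteins that bind actin filaments, and they held both members that passed the upper threshold. *Cnn1* (12797, chromosome 9, 22099221 to 22109221), the basic calponin of differentiated smooth muscle, had 5581 reads and 44.0 TPM in siCtrl, and 11341 reads and 96.6 TPM in si*Vgll3*. Its M of 1.13 [1.09, 1.18] was a 2.20-fold higher level, at rank 155 from the top among the 11754 genes. *Cnn2* (12798, chromosome 10, 79988600 to 79995400), a calponin also found outside muscle, had 92456 reads and 813 TPM in siCtrl, and 97840 reads and 929 TPM in si*Vgll3*, with an M of 0.19 [0.18, 0.21]. The calponins therefore differed among themselves. *Cnn1* took 2.70% of the calponin TPM in siCtrl and 5.33% in si*Vgll3*, *Cnn2* 49.8% and 51.3%, and *Cnn3* 47.5% and 43.4%.

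*Tagln* (21345, chromosome 9, 45929628 to 45936058) encodes transgelin, or SM22α, an early marker of the smooth muscle programme. It had 188770 reads and 1864 TPM in siCtrl, and 251180 reads and 2680 TPM in si*Vgll3*, and M was 0.52 [0.52, 0.53]. The level was 1.44-fold higher and only just past the threshold, and relative to *Gapdh* the difference was 0.35, short of it. By TPM it ranked 83 among the siCtrl genes and 43 among those of si*Vgll3*. *Tagln* held 45.3% of the transgelin TPM in siCtrl and 52.2% in si*Vgll3*, while *Tagln2*, the form of non-muscle cells, held 54.7% and 47.8%. *Tagln3*, the neuronal form, held under 0.01% in each. *Tagln* thus passed from below to above *Tagln2*, with a ratio of 0.829 in siCtrl and 1.09 in si*Vgll3*. Exons of *Tagln* overlap those of *Pcsk7* on the opposite strand. *Pcsk7* had 4450 and 3431 reads and an M of −0.22, and the strand setting of the counting is not given in the sources used here.

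On the myosin side, the light chain and its kinase differed. *Myl9* (98932, chromosome 2, 156775408 to 156781657), the smooth muscle regulatory light chain, had 39853 reads and 576 TPM in siCtrl, and 37634 reads and 588 TPM in si*Vgll3*, for an M of 0.03 [0.01, 0.05]. This was the member nearest to 0 on the TPM scale. *Myl9* held 26.4% and 26.8% of the regulatory light chain TPM, beside 60.3% and 58.8% for *Myl12a* and 13.4% and 14.3% for *Myl12b*, and *Myl2* and *Myl7*, the heart forms, had 0 reads. *Mylk* (107589, chromosome 16, 34745199 to 35002436) encodes the myosin light chain kinase. It had 1968 reads and 3.95 TPM in siCtrl, and 726 reads and 1.57 TPM in si*Vgll3*, for an M of −1.33 [−1.45, −1.20]. The si*Vgll3* level was 39.9% of that in siCtrl, at rank 206 from the bottom of the 11754 genes. Its A of 1.46 was the lowest of the 10 genes. It held 95.9% and 96.6% of the kinase family TPM, and *Mylk3*, with 33 and 10 reads, held the rest. *Mylk2* had 28 and 0 reads but no TPM value, so these shares leave it out, and *Mylk4* had no reads. The TPM of *Myl9* was 146 times that of *Mylk* in siCtrl and 374 times in si*Vgll3*. *Mylk* has long and short products from separate starts, which the gene-level counts do not separate. Antisense transcripts overlap it too, of which *E130310I04Rik* had 34 and 31 reads.

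**Figure D2:**
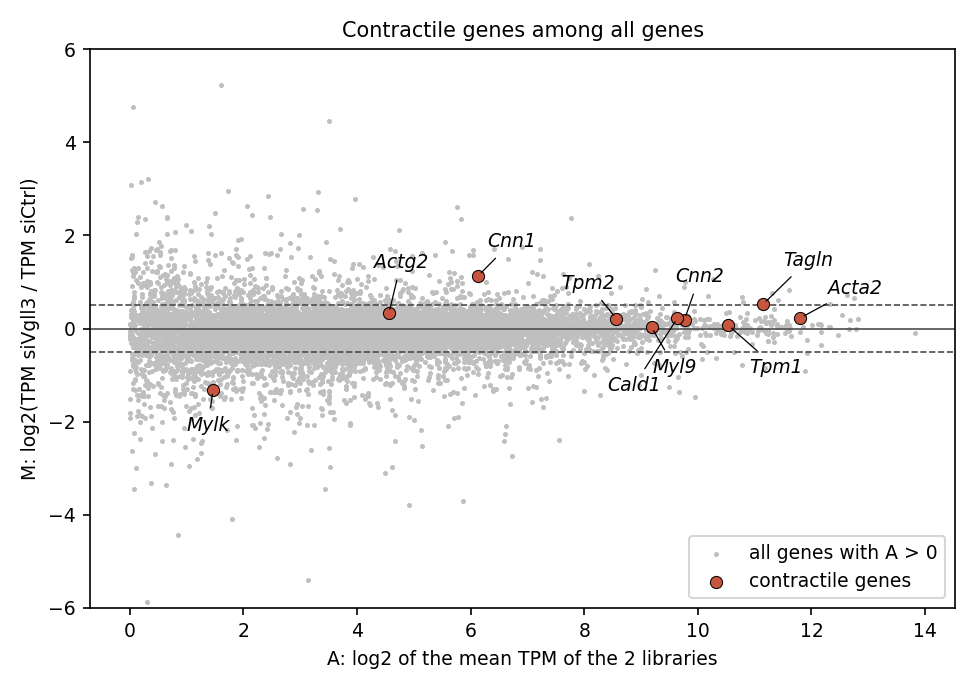
M against A for the 11754 genes with A above 0 (grey) and the 10 contractile genes (red), with dashed lines at M of 0.5 and −0.5. On this TPM scale most members lie at high A just above 0, *Cnn1* (1.13) and *Mylk* (−1.33) lie apart at lower A, and *Tagln* (0.52) lies on the upper line.

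**Figure D3:**
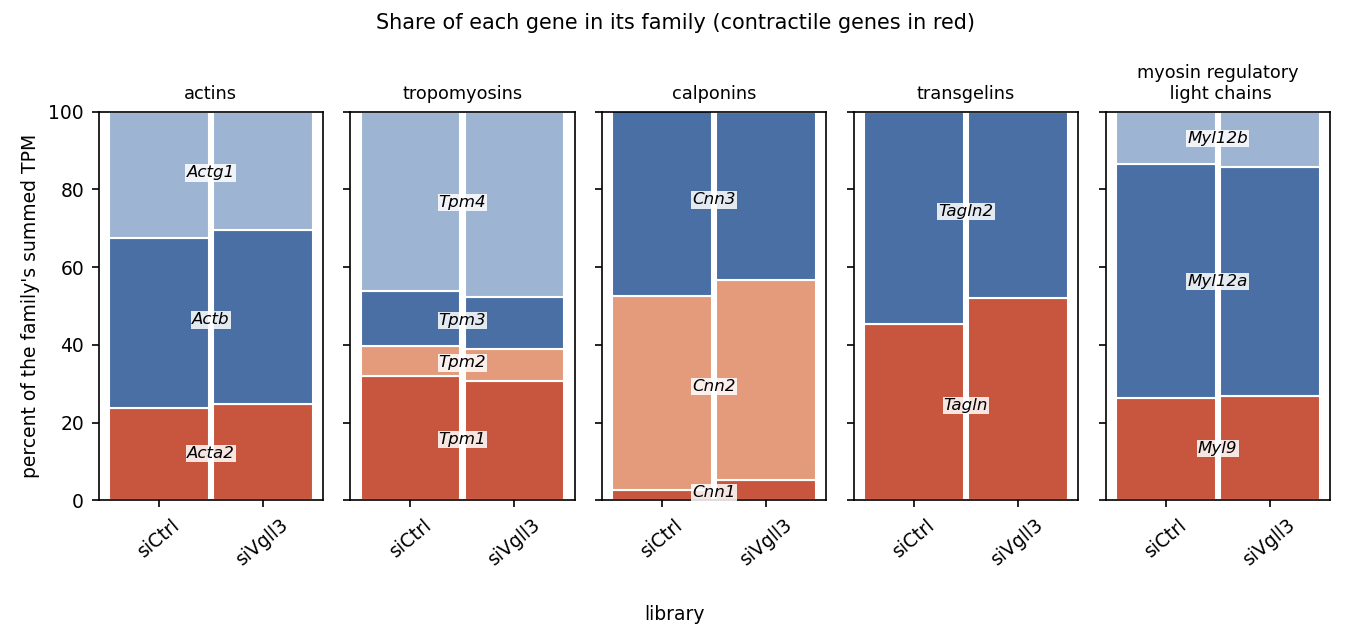
Share of each gene in the summed TPM of its family (y axis, percent) in each library (x axis), with contractile genes in red and their relatives in blue, and with genes under 1% of a family left out. The actins, tropomyosins and light chains keep their mix, while *Tagln* goes from 45.3% to 52.2% and *Cnn1* from 2.70% to 5.33%.

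Since most members are abundant, they were also set beside genes of like level. Among the 648 genes with A above 8, a median M of 0.02 was found, 54.8% had an M above 0 and 4.48% an M above 0.5. The 7 members in this range were *Acta2*, *Tagln*, *Cnn2*, *Tpm1*, *Tpm2*, *Cald1* and *Myl9*. All 7 had an M above 0 on the TPM scale, 1 of them, *Tagln*, was above 0.5, and their median M was 0.22. The most abundant members were also set beside a collagen message of the same cells. *Acta2* had 0.670 times the TPM of *Col1a1* in siCtrl and 1.47 times in si*Vgll3*, and *Tagln* 0.379 and 1.02 times, with *Col1a1* at 4918 and 2631 TPM. Both were thus below *Col1a1* in siCtrl and above it in si*Vgll3*, but this depended on the message chosen. Beside *Col1a2* (4585 and 3179 TPM) *Acta2* passed from below to above, while *Tagln* was below it in both libraries. Beside *Fn1* (4977 and 5115 TPM) both members were below in both libraries.

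The scale of the values bears on how the small differences read. *Gapdh*, 1 of the internal controls of the study's qRT-PCR, had 1920 TPM in siCtrl and 2172 in si*Vgll3*, which gave an M of 0.18, and setting M relative to it was tried after the data were seen. On that scale the median of all genes was −0.22 and the median of the members 0.04, and *Tpm1* and *Myl9* had −0.11 and −0.15. The differences of *Acta2*, *Cnn2*, *Tpm2* and *Cald1* were then between 0.02 and 0.05. *Cnn1* ranged from 0.96 to 1.19 over all settings and *Mylk* from −1.50 to −0.94, so the direction of neither depended on the scale.

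**Figure D4:**
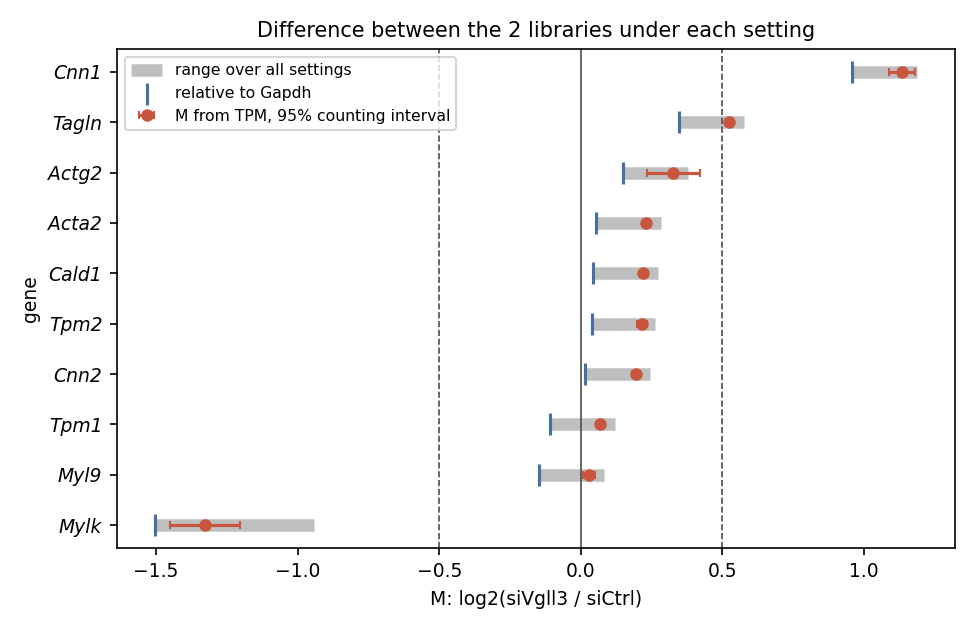
M of each contractile gene from TPM with its 95% counting interval (red), its range over all settings (grey bar) and its value relative to *Gapdh* (blue tick), with dashed lines at M of 0.5 and −0.5. *Cnn1* (0.96 to 1.19) and *Mylk* (−1.50 to −0.94) keep to their own side of the thresholds, *Tagln* (0.35 to 0.57) crosses the upper line, and *Tpm1* and *Myl9* cross 0.

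The promoters were read for the motifs that this programme is known for, and are shown for the most abundant member (*Acta2*), both members with the largest differences (*Cnn1* and *Mylk*) and, for contrast with *Cnn1*, its relative *Cnn2*. Sequences are from RefSeq on GRCm38.p6, the assembly also called mm10, and run 5′ to 3′ over the 250 bases before the transcript start. Capitals mark a CArG box, the site of SRF, exact or with 1 base off, and the M-CAT core CATTCC or its reverse complement GGAATG, the site of TEAD factors. *Acta2* lies on the minus strand at chr19:34255374-34255623, and the others on the plus strand, *Cnn1* at chr9:22099003-22099252, *Cnn2* at chr10:79988350-79988599 and *Mylk* at chr16:34784700-34784949, of which that of *Mylk* lies wholly and those of *Acta2* and *Cnn1* partly within the gene intervals given above.
Acta2: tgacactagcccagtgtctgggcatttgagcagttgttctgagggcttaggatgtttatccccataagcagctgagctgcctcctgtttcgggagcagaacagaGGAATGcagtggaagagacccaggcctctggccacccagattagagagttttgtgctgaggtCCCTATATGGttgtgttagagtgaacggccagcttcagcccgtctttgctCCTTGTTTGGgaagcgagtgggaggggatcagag
Cnn1: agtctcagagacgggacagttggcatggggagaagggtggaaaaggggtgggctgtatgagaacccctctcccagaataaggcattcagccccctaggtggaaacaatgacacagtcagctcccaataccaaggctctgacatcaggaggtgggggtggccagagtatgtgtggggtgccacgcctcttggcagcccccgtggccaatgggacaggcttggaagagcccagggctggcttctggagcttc
Cnn2: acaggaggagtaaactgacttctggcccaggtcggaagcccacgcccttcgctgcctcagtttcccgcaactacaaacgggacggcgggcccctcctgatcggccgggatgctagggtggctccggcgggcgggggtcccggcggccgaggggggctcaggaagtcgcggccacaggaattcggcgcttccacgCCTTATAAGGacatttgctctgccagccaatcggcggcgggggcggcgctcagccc
Mylk: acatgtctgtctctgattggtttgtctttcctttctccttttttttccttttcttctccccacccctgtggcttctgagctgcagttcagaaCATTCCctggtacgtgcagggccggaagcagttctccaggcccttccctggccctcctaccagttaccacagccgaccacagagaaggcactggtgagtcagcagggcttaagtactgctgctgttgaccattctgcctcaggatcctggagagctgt

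Of the 10 genes, 8 had a promoter in the table of RefSeq promoters used here, with 9 promoters in all as *Cald1* had 2, while *Tagln* and *Actg2* had no entry in that table. Motifs were searched on both strands over the 250 bases before and 50 bases after the start, and beside 32851 promoters of the same length. An exact CArG box was found in *Myl9*, from 161 to 152 bases before the start, and in *Cnn2*, from 56 to 47 bases before, and in 1.63% of all promoters. With 1 base off allowed, a choice made after the data were seen, 5 members had a match (*Myl9*, *Cnn2*, *Cald1*, *Tpm1* and *Acta2*), beside 21.1% of all promoters. The matches of *Acta2* begin 84 and 34 bases before the start. The M-CAT core was found in *Acta2* (146 to 141 bases before the start), *Mylk* (158 to 153), *Tpm1* (56 to 51) and the first promoter of *Cald1* (153 to 148), and in 14.7% of all promoters. The letters TATAAA were found in the second promoter of *Cald1* and in 13.6% of all promoters. None of these motifs was found in the windows of *Cnn1* and *Tpm2*. *Cnn1* and *Cnn2* thus differed in the CArG box, and *Mylk* shared the M-CAT core with *Acta2*. *Tpm2*, within the threshold, had none of the motifs, as was so for *Cnn1*, the highest member by M. Whether the motifs go with M was not tested. A match is a description of the letters and not a measurement of binding.

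Other genes of smooth muscle mostly had an M below 0. Of 17 genes of differentiated smooth muscle that are no members, 12 had A above 0. All 12 had an M below 0, 5 were lower and 0 higher, with a median M of −0.43. Among all genes with A above 0, 43.0% had an M above 0, 11.4% were lower and 5.73% higher. Over the settings the lower genes of this list ranged from 3, with a threshold of 1, to 8, relative to *Gapdh*. With M centred on all genes 4 were lower, and with no filter on A 6 were lower and 1 higher. The summed level of the list was 452 TPM in siCtrl and 251 in si*Vgll3*. *Pdlim3*, an α-actinin-binding protein of the Z-disc, had the lowest M and the highest mean TPM. It had 162 TPM in siCtrl and 33.5 in si*Vgll3*, where it was below *Smtn* and *Jph2*, and an M of −2.27 [−2.33, −2.22]. *Smtn*, smoothelin, had 95.1 and 71.5 TPM (M of −0.41), *Jph2*, junctophilin of the membrane junctions, 78.0 and 67.1 (−0.22), and *Hspb6*, a small heat shock protein with the highest M of the list, 2117 and 1793 reads (−0.13). The other lower genes, named after their values were seen, were *Des* (desmin, M of −1.21), *Aoc3* (−1.13), *Ppp1r14a* (−0.94) and *Itga8* (integrin α8, −0.52). The 7 smooth muscle marker genes, which overlap this list, summed to 128 TPM in siCtrl and 90.1 in si*Vgll3*, and *Myh11*, smooth muscle myosin, had 205 and 71 reads. The part of smooth muscle cells in these values was not tested.

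The upstream factors nearly all lay within the threshold, as did most of all genes. Of 14 genes of the SRF, myocardin and MRTF axis with A above 0, 0 were lower and 1 higher. Among all genes 11.4% were lower and 5.73% higher. The median M of the 14 was −0.08. The higher gene was *Fhl1*, a LIM-domain protein, with 85.9 and 124 TPM (M of 0.54), and relative to *Gapdh* 0 were higher. The lowest M was that of *Klf4*, a repressor of smooth muscle genes, with 50.7 and 40.7 TPM (−0.32), and the most abundant were *Csrp1* (0.20), *Csrp2* (−0.05) and *Fhl2* (−0.23), LIM-domain proteins. *Srf* itself, chosen after its values were seen together with its cofactors, had 42.2 TPM in siCtrl and 39.3 in si*Vgll3*, which gave an M of −0.10. *Mkl1* and *Mkl2*, the MRTF genes, had an M of −0.21 and −0.27, and *Myocd* (myocardin) had only 73 and 61 reads.

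Around the kinase, the phosphorylation machinery had mostly small differences. Of 22 genes with A above 0, 1 was lower and 0 higher, beside 11.4% and 5.73% of all genes. The median M was −0.14, and relative to *Gapdh* 2 were lower. The lower gene was *Ppp1r14a*, also on the smooth muscle list, the myosin phosphatase inhibitor CPI-17, with 30.0 TPM in siCtrl and 15.6 in si*Vgll3* and an M of −0.94 [−1.10, −0.79]. *Ppp1r14b*, of the same inhibitor family, had the highest M, with 366 and 457 TPM (0.32). The most abundant were the GTPases *Rhoc* (0.11) and *Rhoa* (0.10) and the calmodulin gene *Calm2* (−0.06). *Ppp1r14a* and the member *Mylk*, which is not on this list, were both lower, each at a modest level, and their products favour light chain phosphorylation. The list gave no single direction for the process. The myosin phosphatase genes *Ppp1r12c* (−0.44) and *Ppp1cb* (−0.26), which oppose it, also had an M below 0, and *Ppp1r14b*, *Rhoc* and *Rhoa* had an M above 0.

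The non-muscle counterparts and the secreted genes complete the comparison. Of 24 genes of non-muscle actomyosin and its crosslinkers with A above 0, 0 were lower and 2 higher. Among all genes these shares were 11.4% and 5.73%. The median M of the 24 was 0.05. Relative to *Gapdh* the counts were 2 lower and 1 higher and the median −0.13. The highest M was that of *Tes*, testin of focal adhesions, with 31.4 and 101 TPM (M of 1.68). *Actb* had an M of 0.19, *Actg1* 0.07 and *Myl6*, the essential light chain, −0.16, and *Myh10*, a non-muscle myosin heavy chain, had the lowest at −0.36. Of 19 secreted genes of activated fibroblasts, 8 were lower and 3 higher, beside 11.4% and 5.73% of all genes, with a median M of −0.34. Relative to *Gapdh* 10 were lower and 1 higher. With CPM, TMM, size factors or M centred on all genes 6 were lower, and with a threshold of 1 only 2 were. *Postn* (periostin) was the lowest, with 696 and 299 TPM (−1.22), and *Spp1* (osteopontin) the highest at 1.00, with *Timp1* at 0.67 and *Thbs1* at 0.57. The abundant *Fn1*, *Bgn* and *Col1a2* had 0.04, −0.34 and −0.53. The contractile and the secreted genes had medians on opposite sides of 0, at 0.22 and −0.34, in this pair of libraries. Relative to *Gapdh* the medians were 0.04 and −0.52. The secreted list was chosen with earlier results of these data known. It holds *Col1a1*, *Col1a2* and *Postn*, which the study reported as reduced by the knockdown. Whether the lists differ beyond the variation between cultures was not tested.

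**Figure D5:**
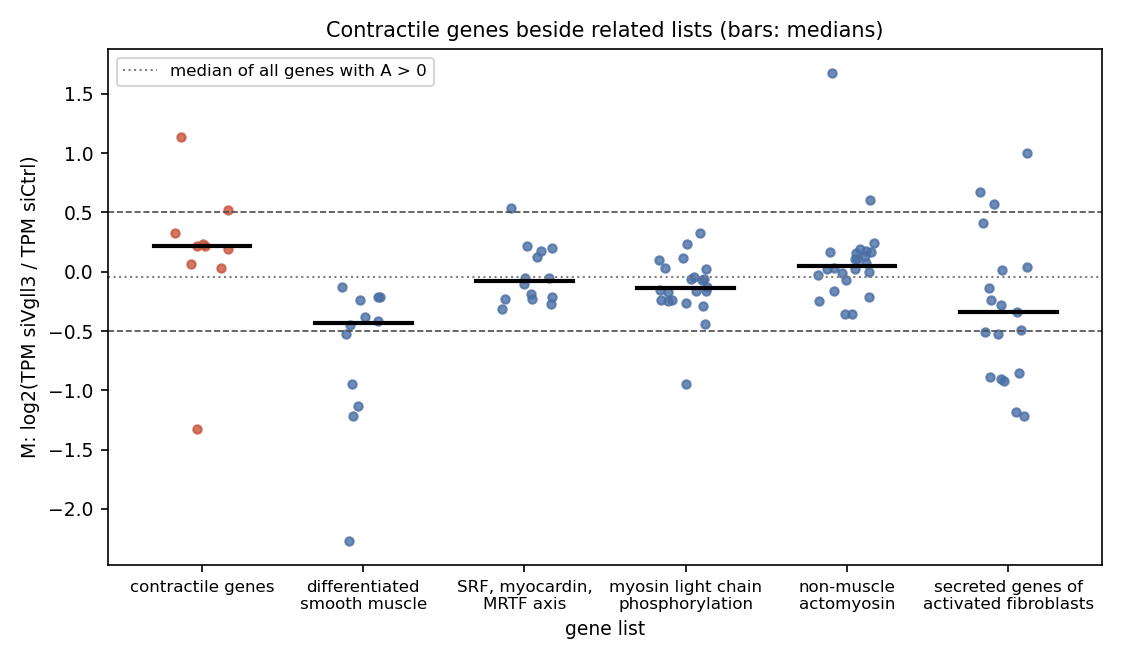
M of each gene with A above 0 (points) in the contractile genes (red) and 5 related lists (blue), with black bars at list medians, a dotted line at the median of all genes (−0.05) and dashed lines at 0.5 and −0.5. On the TPM scale 9 of the 10 contractile genes lie above 0 (median 0.22), *Tpm1* and *Myl9* falling below it relative to *Gapdh*, and differentiated smooth muscle genes all lie below it (median −0.43).

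Reads shared with near-identical genes were few for these members. Of the 36-base words of the *Acta2* transcript, 36 bases being the shortest read kept, 1.05% also occur in another gene, and the share was 0.539% for *Actg2*, 0.454% for *Cnn2* and under 0.1% for *Tpm1* and *Tpm2*. No such word was shared between *Acta2* and *Actg2*, and none of *Tagln*, *Cnn1*, *Myl9*, *Mylk* or *Cald1* occurs in a transcript of another gene in the same orientation. Reverse complements were not searched, so the overlaps of *Tagln* and *Mylk* with genes on the opposite strand are not counted here.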

How the data were processed

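mRNA was sequenced from 1 library of each condition on an Illumina NovaSeq instrument with the TruSeq Stranded mRNA LT kit. The authors checked reads with FastQC, trimmed them with Trimmomatic (reads under 36 bases removed), aligned them to mm10 by HISAT2 and took known genes through StringTie, and tool versions are not given in the sources used here. The authors deposited raw read counts per gene and TPM per gene, which are scaled for gene length and library size. Groups were taken from the labels, and 0 sample columns were left unused. The depth was 140815237 and 125789276 reads.

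M and A were computed from TPM with no pseudocount, with lower genes at M below −0.5 and A above 0 as in the study's MA plot, and higher genes by the same rule with the sign reversed. A as the log2 of the mean TPM was chosen here and gave 1341 lower genes, against 1313 where log2 TPM was averaged instead. The study does not define A, and the averaged form comes nearer to its own count of decreased genes. Genes without TPM in both libraries had no M. The interval of M was the 95% Clopper-Pearson interval of the count ratio, conditional on the sum of both counts and shifted onto the TPM ratio, and it was tested on simulated data. Gene positions and promoters are from RefSeq. Shared 36-base words and overlapping exons are from GENCODE vM21 on GRCm38.p6. Python 3.11.15 with SciPy 1.17.1 was used, and edgeR 4.0.16 (TMM) and DESeq2 1.42.0 (size factors) in R 4.3.3 for scaling only.

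The members and gene lists were chosen with earlier results of these data known. The text names all members, family genes with a read, and from each list the genes with the lowest and highest M and the 3 with the highest mean TPM. Other genes were chosen after their values were seen. Markers are given as the defining gene of each cell type, with sums where they bear on a result. The alternatives were CPM, TMM, size factors, 0.1 or 1 TPM added, other filters and thresholds, centred M and, added after seeing the data, M relative to *Gapdh*. Protein sequences were not used here, and 1 gene of the lists is not reported here by name.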

Additional observations from a re-analysis of the deposited data

How the results depend on the processing

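The counts of members past the threshold, 2 higher and 1 lower, were the same with CPM, TMM, DESeq2 size factors, 0.1 or 1 TPM added, M centred on all genes, A as the mean of log2 values, no filter on A, at least 10 reads in each library and whole intervals beyond 0.5. In the main setting 5.73% of all genes were higher and 11.4% lower. The members higher were 1 with a threshold of 1 and 1 with M relative to *Gapdh*, where *Tagln* no longer passed. The members lower were 0 with A above 2, which leaves out *Mylk*. The median M of the members ranged from 0.04 to 0.27 over the settings, and that of the differentiated smooth muscle genes from −0.61 to −0.29. Relative to *Gapdh*, 2357 genes of all were lower and 418 higher, against 1341 and 674. With 1 TPM added, the M of *Mylk* was −0.94. No paired analysis was possible because there was only 1 library in each condition, and no library could be left out for the same reason. The counting intervals of the abundant members are narrow, so the limit on their small differences is the lack of replicates and not the depth, while the 726 reads of *Mylk* and the 1760 of *Actg2* give the widest intervals.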

Other observations

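Other muscle and cytoskeletal genes, chosen after their values were seen, gave the following values. The cardiac troponin T gene *Tnnt2*, of the thin filament of heart muscle, had 4574 reads and 60.0 TPM in siCtrl against 733 reads and 10.4 TPM in si*Vgll3*, for an M of −2.53 [−2.64, −2.42]. Of the 11 cardiomyocyte markers it was 1 of 2 with any read, the other being *Tnni3* with 0 and 10 reads, so the summed level of that marker list is that of *Tnnt2* alone. The slow troponin C gene *Tnnc1* had 1.94 and 2.95 TPM (M of 0.61). Of 7 PDZ and LIM proteins, 6 had A above 0 and 1 was lower, *Pdlim3*, beside 11.4% of all genes. *Pdlim1*, *Pdlim2*, *Pdlim5* and *Pdlim7* had an M of 0.15, −0.06, 0.17 and −0.01.

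Of 4 keratins of simple epithelia and mesothelium, 2 were higher in si*Vgll3*, beside 5.73% of all genes with A above 0. *Krt19* had 2.86 TPM in siCtrl and 16.8 in si*Vgll3* (M of 2.56) and *Krt7* had 1.62 and 6.15 (1.93), while their partners *Krt8* and *Krt18* had an M of −0.20 and −0.12. The 6 mesothelial markers, which include *Krt19*, were split, beside 11.4% lower and 5.73% higher among all genes. *Wt1*, *Upk3b* and *Lrrn4* were lower (M of −0.67, −1.68 and −1.67), *Krt19* and *Msln* were higher (*Msln* with 1.58 and 5.93 TPM, M of 1.91), and the list summed to 73.9 and 55.7 TPM. The other marker lists summed, in siCtrl and si*Vgll3*, to 16173 and 13553 TPM for fibroblasts, 111 and 112 for pericytes, 32.4 and 30.0 for endothelium and 13.4 and 6.10 for leukocytes.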
